A study of Homo sapiens and Mus musculus with 69 samples.

Results

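The matrix metalloproteinase (MMP), ADAM, ADAMTS and TIMP genes were followed across small cell lung cancer (SCLC) lines with and without Notch activation. They were taken by name alone, as every gene whose symbol is 1 of these 4 family names followed only by digits. The rule found 65 of 20516 genes in the human table (21 MMP, 21 ADAM, 19 ADAMTS and 4 TIMP) and 58 of 18501 in the mouse table (17, 18, 19 and 4). The rule itself uses names and no measured value.

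MMPs are zinc-dependent proteases that cut collagens and other matrix proteins, and most are secreted while the membrane-type members stay at the cell surface. ADAMs are membrane proteases that shed the outer parts of receptors, ligands and adhesion proteins, and ADAM10 and ADAM17 can make the extracellular cut that primes a Notch receptor for gamma-secretase. ADAMTS proteases are secreted and cut proteoglycans (the hyalectanases such as ADAMTS1, ADAMTS4, ADAMTS9 and ADAMTS15) or trim procollagens (ADAMTS2, ADAMTS3 and ADAMTS14), and TIMPs are the tissue inhibitors that block the active sites of these enzymes.

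The study sequenced bulk RNA of 69 libraries in 23 groups of 3: 60 libraries of the human lines NCI-82 (H82), NCI-H524 (H524), NCI-H69 (H69) and COR-L88, and 9 of KP1, a mouse SCLC line that lacks *Rb1* and *Trp53*. Every H82 group other than the parental cells carried a doxycycline-inducible lentiviral vector for the active intracellular domain of NOTCH1 (N1ICD) and was grown without (no dox) or with (dox) doxycycline, in otherwise intact cells, in cells with a CRISPR knockout (KO) of *REST*, the repressor of neuronal genes, and in cells with a KO of *STING1*, the innate immune sensor adaptor, labelled STING KO. H524 was given as parental cells and as cells with either the N1ICD vector or a *REST* vector, each without and with doxycycline, and H69 as parental cells and as cells with the N1ICD vector without and with it. COR-L88 was treated with DMSO, with TAS1440 (an LSD1 inhibitor used here to switch on Notch signaling) or with TAS1440 plus the gamma-secretase inhibitor (GSI) BMS-708163, and its STING KO cells with DMSO or TAS1440, whereas KP1 was treated with DMSO, TAS1440 or TAS1440 plus the GSI DBZ. Doxycycline was used at 1 ug/mL, TAS1440 at 100 nM, BMS-708163 at 2 uM and DBZ at 10 uM, for at least 28 days. The days of induction are not in the labels. A legend of the paper gives a longer N1ICD induction for H69 than for H82 and H524, and the part of time was not tested. After doxycycline the adherent cells were the ones collected, so the induced groups also differ from their controls in how they were harvested, and which KO clones were sequenced was not given.

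Values are log2(RPKM + 1), where RPKM is reads scaled by gene length and sequencing depth. They are per length and so can be compared between genes within a table, but the human and KP1 tables were scaled separately and are not compared in level. A member rose or fell here when limma gave an adjusted *P* under 0.05 and a difference of at least 1 on this log2 scale, in a fit over the genes that reached 1 in 3 or more libraries of that line. That filter kept 36 members in H82, 35 in H524, 37 in H69, 25 in COR-L88 and 12 in KP1. A member that passed it only through the group where it was high had to differ, so counts are given beside the share of all tested genes and support nothing by themselves. The *P* value of such a member supports nothing by itself either. The log2(RPKM + 1) scale understates the change of low genes. In bulk RNA, fewer cells of a type and less RNA per cell cannot be told apart.

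The libraries differed in ways that touch several results. From the smallest steps in the values, the relative library size was 0.698 to 1.52 times the median in the human table and 0.872 to 1.07 in KP1. Over well expressed genes, the SD of the log2 difference between libraries of 1 group was 0.194 to 0.895 in the human table, with the largest value among the H524 N1ICD no-dox libraries, and 0.13 (KP1 DMSO libraries 1 and 2) to 0.889 (KP1 TAS1440 libraries 4 and 6) in KP1. *NOTCH1* RNA was 4.26 to 5.56 in the intact H82 dox libraries against 0.88 to 1.45 without. It was 7.58 to 8.31 against 0.79 to 1.52 in H524, and 7.93 to 8.07 against 0.38 to 0.39 in H69. In H82 with doxycycline it was higher in the KO groups, at 8.75 to 10.74 with REST KO and 5.97 to 7.48 with STING KO. Without doxycycline these groups were at 1.21 to 1.47 and 1.77 to 2.15. The H82 KO and intact dox groups compared below thus also differ in *NOTCH1* level, and its part was not tested. *NOTCH1* RNA in intact COR-L88 was 0.61 to 0.74 with DMSO, 1.99 to 2.79 with TAS1440 and 6.71 to 6.75 with TAS1440 plus GSI. COR-L88 STING KO cells were at 0.960 to 1.065 with DMSO and 2.82 to 4.93 with TAS1440. The COR-L88 groups compared below thus differ in *NOTCH1* level too, and its part was not tested. *REST* RNA was 6.87 to 10.72 in the H524 *REST* dox libraries against 4.90 to 5.05 without. A small frameshift edit need not lower RNA, so the KO labels cannot be checked this way. With doxycycline *REST* was 4.95 to 5.89 in the libraries labelled REST KO against 6.13 to 6.48 in intact cells, and *TMEM173* (the older symbol of *STING1*) was 1.27 to 2.04 in those labelled STING KO against 1.07 to 1.17. The uninduced H69 vector libraries stood apart from parental H69: the neuronal factor *NEUROD1* was 9.39 against 4.37 (group means).

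Markers of other cell types moved with induction. The summed level of 6 fibroblast markers (log2 of summed RPKM + 1) was 1.02 to 3.72 without and 6.93 to 7.76 with doxycycline in H82, 3.72 to 5.10 and 7.30 to 7.54 in H524, and 3.34 to 3.81 and 11.1 to 11.2 in H69. It was 0.14 to 0.28 with DMSO and 0.99 to 1.42 with TAS1440 in COR-L88, and 1.29 to 2.53 and 4.05 to 5.06 in KP1. The markers with a mean of at least 1 after activation numbered 3 of 6 in H82, 4 in H524, 5 in H69, 0 in COR-L88 and 5 in KP1, and *PDGFRA*, a defining marker, stayed near 0 in the H524 and H69 dox libraries. The leukocyte marker *PTPRC* was near 0 in the dox groups and in both TAS1440-treated lines. In H69, however, the myeloid marker *CD14* was 4.79 with and 3.28 without doxycycline, beside 4.21 in parental cells (group means). Of the airway markers tested in H69, *KRT5* rose from 0.47 to 6.12, *FOXJ1* fell from 1.09 to 0.03 and *SFTPC* was not called. The neuroendocrine marker *INSM1* fell from 3.57 to 0.39 in H82, 6.88 to 3.85 in H524, 8.36 to 0.01 in H69 and 6.91 to 2.12 in COR-L88 (group means). The part of these markers in the results below was not tested.

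Untreated lines differed in which member led. In parental H82 the leaders were the sheddases *ADAM10* and *ADAM17*, with 16.8% and 13.5% of the summed RPKM of all 65 members. In parental H524 a single gene, the procollagen N-proteinase *ADAMTS2*, held 63.8% (54.7% to 70.4% over 3 libraries). In COR-L88 with DMSO it was the sheddase *ADAM9* with 20.2%, and in KP1 with DMSO the stromelysin *Mmp11* with 29.5%. Of the 65 human members, 46 passed the filter in at least 1 line. Of the 19 that passed in none, *ADAM2* and *ADAM30*, which are known for testis expression, were listed at 0 in all 60 libraries, and the collagenases *MMP1*, *MMP8* and *MMP13* did not exceed 0.87, 0.05 and 0.57. The collagenase-rich cluster on chromosome 11 (hg19) that holds *MMP7*, *MMP20*, *MMP8*, *MMP10*, *MMP1*, *MMP3*, *MMP12* and *MMP13* was therefore almost silent, with *MMP7*, *MMP10* and *MMP3* as the members that passed the filter in a line.

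**Figure D1:**
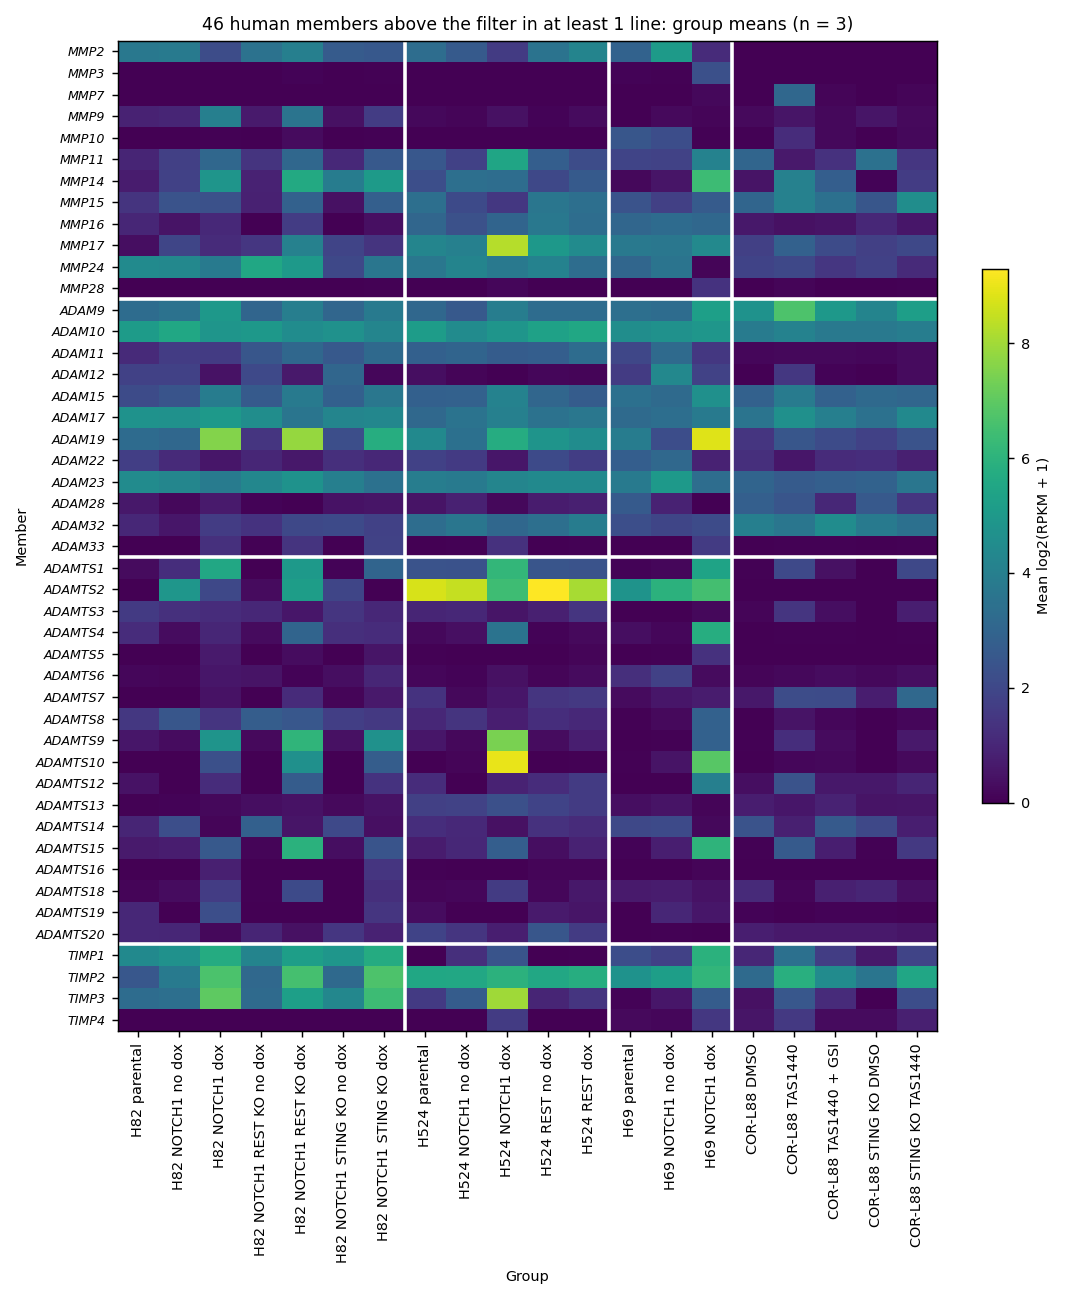
Heat map of the mean log2(RPKM + 1), as color, of the 46 human members that passed the filter in at least 1 line (vertical axis, by family) in the 20 human groups (horizontal axis, n = 3 libraries each). *ADAMTS2* is the bright row in H524, and *ADAM19*, *ADAMTS9* and *TIMP3* brighten in the N1ICD dox columns.

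The upstream sequences of 37 of the 65 human members were found in the RefSeq promoter table (GRCh38.p14). They were searched on both strands over the 250 bases before the start. The first pattern was TGANTCA, a loose form of the AP-1 site with any middle base, since MMP genes are textbook AP-1 targets. The other was TGGGAA, the core bound by RBPJ, the DNA-binding partner of N1ICD. The AP-1 letters were in 4 of 37 (*MMP7*, *MMP10*, *MMP20* and *ADAMTS12*; 10.8%) against 6.57% of 35116 promoters, and the RBPJ core in 3 of 37 (*ADAM20*, *ADAM22* and *MMP15*; 8.11%) against 20.8%. Of the members that rose in all 3 N1ICD inductions, 6 were matched and 0 held either motif in this window. *MMP7* and *ADAMTS12* are shown because they separate COR-L88 TAS1440 from TAS1440 plus GSI, *MMP10* because it holds a match to the same motif, with another middle base, at the same distance from its start as *MMP7* and fell in H69, and *MMP15* because its direction differed between lines. They lie at chr11:102530748-102530997, chr5:33891991-33892240, chr11:102780629-102780878 (all on the minus strand) and chr16:58025504-58025753 (plus strand) in GRCh38.p14, just before the first exon. Capitals mark the match, which is TGAGTCA in *MMP7*, TGAATCA in *ADAMTS12* and *MMP10*, and the RBPJ core in *MMP15*. A match describes letters and not a bound site.
MMP7: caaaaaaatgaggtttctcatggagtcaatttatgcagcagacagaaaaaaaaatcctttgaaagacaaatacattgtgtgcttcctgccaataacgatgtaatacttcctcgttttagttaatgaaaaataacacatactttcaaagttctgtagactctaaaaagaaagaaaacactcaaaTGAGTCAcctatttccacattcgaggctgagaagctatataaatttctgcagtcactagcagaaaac
ADAMTS12: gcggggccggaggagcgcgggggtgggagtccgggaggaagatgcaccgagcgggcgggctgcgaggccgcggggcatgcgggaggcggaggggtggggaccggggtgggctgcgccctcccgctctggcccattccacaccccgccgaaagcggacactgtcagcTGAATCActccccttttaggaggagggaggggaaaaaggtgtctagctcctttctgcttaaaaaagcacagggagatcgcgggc
MMP10: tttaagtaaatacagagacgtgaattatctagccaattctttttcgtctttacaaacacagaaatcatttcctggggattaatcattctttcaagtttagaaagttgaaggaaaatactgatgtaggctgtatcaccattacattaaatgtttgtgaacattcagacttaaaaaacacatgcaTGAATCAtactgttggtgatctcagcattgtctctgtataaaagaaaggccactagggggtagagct
MMP15: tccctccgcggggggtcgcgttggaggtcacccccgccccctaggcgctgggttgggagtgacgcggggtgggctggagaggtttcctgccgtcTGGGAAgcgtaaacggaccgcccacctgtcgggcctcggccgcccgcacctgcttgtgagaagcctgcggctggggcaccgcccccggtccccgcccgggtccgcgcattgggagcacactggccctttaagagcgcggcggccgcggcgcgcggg

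N1ICD induction raised members of all 4 families in H82. The sheddase *ADAM19*, the hyalectanases *ADAMTS9* and *ADAMTS1*, the membrane-type *MMP14*, the gelatinase *MMP9* and the inhibitors *TIMP2* and *TIMP3* rose most, and the procollagen proteases *ADAMTS2* and *ADAMTS14* and the gelatinase *MMP2* fell. Of 36 members tested, 18 rose and 5 fell, where 14.7% of all 13903 genes rose and 12.4% fell. The median member difference was 0.91 against 0.00 over all genes. *ADAM19* was at 2.86, 3.00 and 3.48 without and at 8.03, 7.32 and 7.37 with doxycycline, a difference of 4.46 ± 0.26 (SE, adjusted *P* = 1.64e-10). *ADAMTS9* went from 0.28 to 0.37 to 4.34 to 5.35, a difference of 4.50 ± 0.26 (adjusted *P* = 1.79e-10). In neither gene did the 2 groups overlap.

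The surface collagenase and MMP2 activator *MMP14* was at 1.62, 2.04 and 1.71 without and 4.95, 4.62 and 4.95 with doxycycline (difference 3.05 ± 0.22, adjusted *P* = 2.7e-09). *MMP2* itself moved the other way, from 3.31, 4.19 and 4.06 to 2.28, 1.97 and 2.26, and so fell by 1.68 ± 0.26 (adjusted *P* = 3.35e-05). The gene of the activator and that of the enzyme it activates thus changed in opposite directions. *MMP9*, the other gelatinase, rose from 0.83 to 1.10 to 3.80 to 4.28 (difference 3.05 ± 0.44, adjusted *P* = 1.62e-05). *TIMP2*, which both inhibits MMPs and serves as the adaptor between MMP14 and pro-MMP2, rose by 2.89 ± 0.26 from 3.72 to 3.84, and the matrix-bound *TIMP3* by 3.61 ± 0.57 from 2.41 to 4.09. *TIMP1* rose by 1.03 ± 0.22 (adjusted *P* = 0.00072), just past the limit, and lost its call with median centring (0.98) and without no-dox library 6 (0.89) or dox library 8. The Notch-cutting sheddases *ADAM10* and *ADAM17* differed by -0.70 ± 0.15 and 0.33 ± 0.19 and were not called.

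*ADAMTS2* needs its control levels beside it. It was at 0.00 in each parental library, at 3.45, 5.27 and 5.91 in the no-dox vector libraries and at 1.45, 2.47 and 2.09 with doxycycline, so the fall of 2.87 ± 0.50 (adjusted *P* = 0.00011) was from a level that parental cells did not have. *NOTCH1* RNA was 0.01 to 0.04 in the parental libraries and already 0.88 to 1.45 in the no-dox vector libraries, and its part was not tested. The no-dox vector cells differed from parental cells in 5 members that were higher, *ADAMTS2*, *MMP17*, *ADAMTS14*, *TIMP2* and *MMP14*, and 1 that was lower, *ADAMTS19* (3.75% and 2.66% of all genes). *ADAMTS2* showed the largest of these differences, 4.87 ± 0.50 (adjusted *P* = 1.71e-06), followed by *MMP17*, a membrane-type MMP held by a lipid anchor, at 1.58 ± 0.47, whose call was lost without any of 5 of the 6 libraries, without the filter and with the compared groups alone. Without library 5 of the no-dox vector cells 2 members were called in this comparison, and without library 6 or parental library 3 the number was 3.

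In H524 N1ICD raised *ADAMTS10*, *ADAMTS9*, *TIMP3*, *MMP17*, *ADAMTS1* and *MMP11* most and lowered *ADAMTS2*. The ADAMTS share of summed member RPKM was 64.3% without (55.6% to 72.7%) and 49.9% with doxycycline (45.5% to 54.9%), and the MMP share 10.4% and 22.2%. *ADAMTS10*, a protease of fibrillin microfibrils, went from 0.00, 0.37 and 0.00 to 8.88, 9.04 and 9.05, the largest dox difference of any member in the 3 lines (8.87 ± 0.13, adjusted *P* = 1.92e-14), and became the leading member with 29.2% of summed RPKM. *ADAMTS9* went from 0.00 to 0.41 to 7.26 to 7.54 (difference 7.25 ± 0.18). *TIMP3* rose by 5.29 ± 0.49 to 7.50 to 8.46, *MMP17* by 4.20 ± 0.24, *ADAMTS1* by 3.84 ± 0.29 and *MMP11* by 3.67 ± 0.30. Of 35 members tested, 15 rose and 3 fell (11.4% and 7.19% of 13648 genes), and the median member difference was 0.49 against -0.02 over all genes. Without dox library 27 the count called was 10, since genes seen only with doxycycline then miss the filter, and with the genes tested kept the same it was 16 to 19 over the libraries left out.

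The 3 H524 members that fell were *ADAMTS2*, from 7.65, 9.35 and 8.45 to 6.53, 6.54 and 6.13 (fell by 2.09 ± 0.36, adjusted *P* = 0.000554), *MMP2* (fell by 1.00 ± 0.26, adjusted *P* = 0.00918, not called without no-dox library 23 or dox library 27) and *ADAM22*, a neuronal ADAM that lacks protease activity and binds LGI proteins (fell by 1.00 ± 0.17, not called without no-dox library 23 or 24 or dox library 27). *MMP14*, which rose in H82, was at 3.13, 4.20 and 2.85 without and 3.37, 3.23 and 3.35 with doxycycline, a difference of -0.08 ± 0.31 that was not called. *TIMP1* rose by 1.15 ± 0.32 (adjusted *P* = 0.013), but the no-dox libraries were spread from 0.42 to 2.30, parental libraries were at 0.00 to 0.05, and the call was lost without no-dox library 24, with quantile normalization and with the compared groups alone. *TIMP4*, an inhibitor known from heart and brain, was at 0.00 to 0.05 without and at 1.33 to 1.80 with doxycycline (difference 1.59 ± 0.12). *ADAM10*, *ADAM17* and *TIMP2* were not called. In no-dox vector cells against parental cells 2 members were higher (*TIMP1* and *MMP14*) and 3 lower (*ADAMTS12*, *ADAMTS7* and *MMP15*), with 4.94% and 7.16% of all genes. The count was 2 without parental library 21, 3 without vector library 22 and 8 without parental library 20. *NOTCH1* RNA was 0.23 to 0.73 in these parental libraries and 0.79 to 1.52 in the no-dox vector libraries, and its part was not tested.

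*REST* induction in H524 gave no called member. Of 35 members 0 rose and 0 fell by limma (1.28% and 0.586% of all genes), while 10 had an unadjusted *P* under 0.05 and 1 was called without *REST* dox library 37. *REST* RNA was 6.87 in library 37 against 10.72 and 9.43 in libraries 38 and 39, and the part of this uneven induction was not tested. *ADAMTS10* was at 0.00, 0.00 and 0.15 in the *REST* dox libraries, *ADAMTS9* at 0.65 to 0.92, and *ADAMTS2*, the leading gene, at 7.63 to 8.53 against 9.09 to 9.58 without doxycycline, which did not pass the test. Uninduced *REST* vector cells against parental cells also gave 0 and 0 (0.022% and 0.242% of all genes), with 3 members at an unadjusted *P* under 0.05. Set directly against *REST* dox, N1ICD dox was higher in 14 members and lower in 4 (12.3% and 11.5% of all genes), led by *ADAMTS10* at 8.94 ± 0.13 and *ADAMTS9* at 6.65 ± 0.18. *MMP2* was the lowest at -2.56 ± 0.26, from a mean of 1.62 with N1ICD and 4.18 with *REST*. The difference between the 2 dox responses was called for 14 members in favor of N1ICD and 2 in favor of *REST* (9.88% and 5.68% of all genes), and for 8 to 9 in all without N1ICD dox library 25, 26 or 27 (13 to 16 with the genes tested kept the same).

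In H69 *ADAM19*, *ADAMTS10* (6.41 ± 0.14), *MMP14* and *ADAMTS4* rose most, and *MMP2* and *MMP24* fell most. Of 37 members tested, 19 rose and 9 fell, where 21.4% of 13580 genes rose and 20.4% fell, against 51.4% and 24.3% of the members. Without dox library 52, 53 or 54 the count called was 16, again through the filter, and 28 to 30 with the genes tested kept the same. *ADAM19* went from 2.51, 2.00 and 2.05 to 8.88, 8.82 and 8.81 (difference 6.65 ± 0.14, adjusted *P* = 1.02e-09) and held 36.2% of summed member RPKM. *MMP14* went from 0.41 to 0.68 to 6.32 to 6.47, a difference of 5.86 ± 0.08. The hyalectanases rose together: *ADAMTS4* by 5.63 ± 0.07, *ADAMTS15* by 5.25 ± 0.15, *ADAMTS1* by 5.24 ± 0.06, *ADAMTS9* by 2.82 ± 0.07, *ADAMTS8* by 2.64 ± 0.08 and *ADAMTS5* by 1.28 ± 0.06. The COMP-degrading *ADAMTS12* was at 0.00 in each no-dox library and at 3.98, 4.01 and 4.00 with doxycycline. The stromelysin *MMP3*, near 0 in the other human lines, was at 2.24 to 2.29 with doxycycline, and *TIMP1* rose by 4.15 ± 0.26 from 1.26 to 2.39.

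The H69 members that fell included the neural membrane-type *MMP24* (from 3.45 to 3.75 to 0.02 to 0.19, fell by 3.47 ± 0.10), *ADAM12* (fell by 2.54 ± 0.08), *ADAM22* (fell by 2.25 ± 0.09), the stromelysin *MMP10* (fell by 2.16 ± 0.15) and *ADAMTS14* (fell by 1.89 ± 0.07). *MMP2* fell furthest, from 4.22, 5.55 and 5.42 to 1.09, 1.08 and 1.23 (fell by 3.93 ± 0.30, adjusted *P* = 2.76e-06). For 2 of these, the level in parental cells was lower by a called difference than in the uninduced vector cells that served as control: *MMP2* was at 2.91 to 2.96 and *ADAM12* at 1.50 to 1.78 in parental H69, and the latter lies close to the 1.76 to 1.86 of the dox libraries. In the uninduced vector cells 5 members were higher than in parental cells (*ADAM12*, *MMP2*, *ADAM11*, *ADAMTS2* and *ADAM23*) and 2 lower (*ADAM19* and *ADAM28*), with 3.02% and 2.25% of all genes. *TIMP2* was at 4.73 to 5.51 without and 6.09 to 6.14 with doxycycline (difference 0.90, not called).

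The 3 inductions share no control libraries. In each of them *ADAM9*, *ADAM15*, *ADAM19*, *ADAM33*, *ADAMTS1*, *ADAMTS9*, *ADAMTS10*, *ADAMTS15*, *MMP11*, *TIMP1* and *TIMP3* rose, 11 members, and 1, *MMP2*, fell. The share of all genes called in all 3 was not counted, so the number of shared members supports nothing by itself. *TIMP1* in H82 and H524 and *MMP2* in H524 are the ones near the limit, as given above. The sheddase *ADAM15* rose by 1.23 to 1.49 and *ADAM9* by 1.36 to 1.98, a narrow range, whereas *ADAMTS10* rose by 2.26, 8.87 and 6.41 in H82, H524 and H69 and *ADAMTS9* by 4.50, 7.25 and 2.82. *ADAM33*, a sheddase known from asthma genetics, rose by 1.26 to 1.60 from levels of at most 0.10. Tested in 1 model over all 60 human libraries, the response differed between H69 and H82 for 14 members higher and 14 lower of 46 (21.9% and 21.2% of 15888 genes), between H69 and H524 for 13 and 15 (17.8% and 19%), and between H82 and H524 for 7 and 9 (9.59% and 10.1%). *MMP14* differed in each pair, and so did *ADAM19*, *ADAMTS9*, *ADAMTS10*, *ADAMTS4*, *MMP17* and *ADAM12*.

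**Figure D2:**
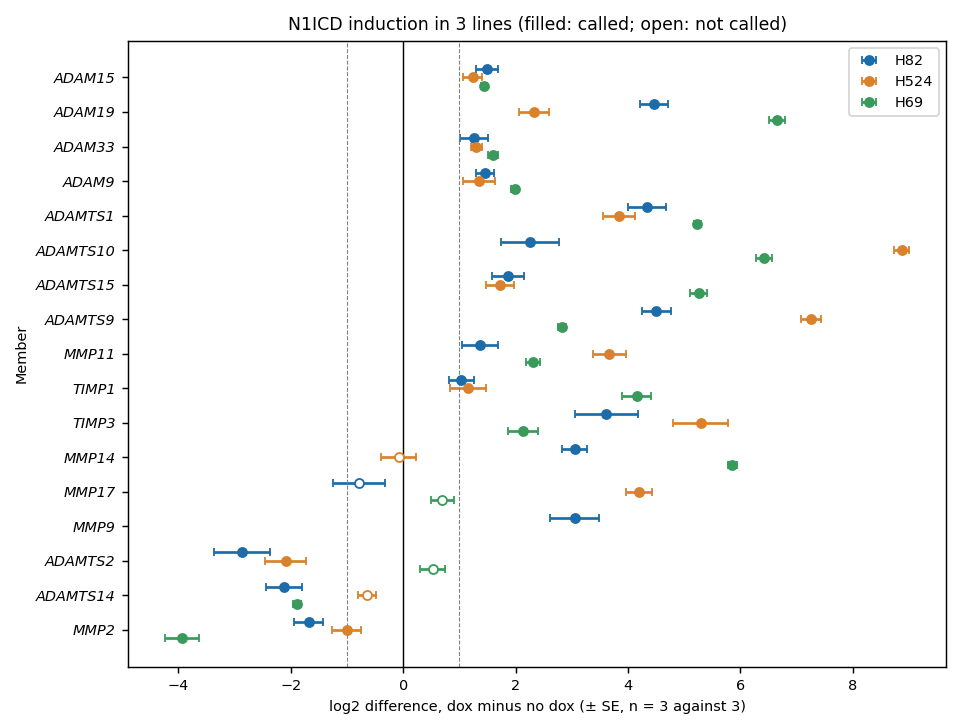
Difference between dox and no-dox libraries (horizontal axis, log2 scale, bars ± SE, n = 3 against 3) for 17 members (vertical axis) in H82, H524 and H69, with filled points for called differences and dashed lines at the limit of 1. The 11 shared members lie right of the limit in each line and *MMP2* at or left of the lower one, while *MMP14* is near 0 in H524 and *MMP17* is called in H524 alone.

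In H82 with *REST* knocked out, of 36 members 20 rose and 2 fell (16.2% and 13.7% of all genes), and *ADAM19* (6.38 ± 0.26), *ADAMTS9* (5.86 ± 0.26), *ADAMTS15* (5.80 ± 0.28), *ADAMTS1* (5.02 ± 0.34), *ADAMTS2* (4.92 ± 0.50) and *MMP14* (4.75 ± 0.22) rose most. *ADAMTS14* and *ADAM12* fell by 2.33 ± 0.32 and 1.42 ± 0.36. Compared directly under doxycycline, 11 members were higher and 3 lower in REST KO cells than in intact cells (9.44% and 8.21% of all genes). *ADAMTS15* was at 5.88, 6.45 and 5.49 against 2.69, 2.19 and 2.97 (difference 3.33 ± 0.28, adjusted *P* = 6.66e-08), and *MMP17* at 3.85 to 4.46 against 0.62 to 1.75 (2.95 ± 0.47). *ADAMTS19* was at 0.00 in each REST KO dox library and at 2.48, 1.75 and 2.44 in intact dox cells, and *ADAM17* was lower by 1.41 ± 0.19 in the KO, at 3.48 to 3.75 against 4.86 to 5.32. *TIMP3* was lower by 1.76 ± 0.57 (adjusted *P* = 0.0199), a call that was lost without intact dox library 7 or without REST KO dox library 33, which lay at 3.83 beside 5.64 and 6.23.

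The difference between the dox responses of REST KO and intact cells was called for 12 members higher and 2 lower (7.46% and 5.46% of all genes). *ADAMTS2* had the largest, 7.79 ± 0.70 (adjusted *P* = 5.56e-07), and both arms of it moved: it rose in REST KO cells from 0.00, 0.00 and 0.77 to 5.27, 5.61 and 4.65 and fell in intact cells. Without doxycycline *ADAMTS2* was already lower in REST KO than in intact vector cells by 4.62 ± 0.50, 1 of 4 members that were lower, with *ADAM19*, *MMP15* and *ADAMTS1*, against 1 that was higher, *MMP24* (2.85% and 3.39% of all genes). *MMP2* fell in intact cells but was at 3.39 to 3.69 without and 3.81 to 4.13 with doxycycline in REST KO cells, a difference of 0.52 that was not called, and its response differed by 2.20 ± 0.37 (adjusted *P* = 0.000371).

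In the H82 libraries labelled STING KO, 17 of 36 members rose with doxycycline and 3 fell (12.2% and 8.07% of all genes). *ADAMTS9* (4.27 ± 0.26), *ADAM19* (3.56 ± 0.26), *TIMP2* (3.52 ± 0.26), *ADAMTS1* (2.90 ± 0.34), *ADAMTS10* (2.76 ± 0.52) and *MMP15* (2.37 ± 0.26) rose most, and *ADAM12*, *ADAMTS2* and *ADAMTS14* fell by 2.91 ± 0.36, 1.95 ± 0.50 and 1.68 ± 0.32. Under doxycycline 1 member, *ADAM11*, an ADAM without protease activity, was higher in these libraries than in intact ones, and 5 were lower, *ADAMTS1*, *MMP9*, *ADAMTS2*, *ADAM19* and *ADAM9* (7.72% and 8.75% of all genes). *ADAMTS1* was at 3.49, 2.61 and 2.94 against 6.11, 5.00 and 5.57, lower by 2.55 ± 0.34 (adjusted *P* = 2.7e-05). *MMP9* was at 0.12, 2.03 and 2.84 against 3.80, 4.28 and 4.00, so 1 STING KO library lay far below the other 2 but none reached the intact range. Without doxycycline 3 members were higher (*MMP14*, *ADAM32* and *ADAM12*) and 5 lower (*ADAMTS2*, *MMP24*, *MMP15*, *MMP2* and *ADAMTS1*) than in intact vector cells (6.64% and 7.72% of all genes). *MMP14* was at 3.47 to 4.14 there against 1.62 to 2.04, and with doxycycline at 4.87 to 5.22 against 4.62 to 4.95, so the dox difference of 1.16 ± 0.22 started from a higher level, and it was 0.94 and not called without no-dox library 57. The difference between responses was called for 3 members higher, *MMP15*, *MMP24* and *MMP2*, and 1 lower, *MMP14* (3.91% and 3.21% of all genes). The comparisons within H82 share libraries, so their values stand side by side and are not independent.

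**Figure D3:**
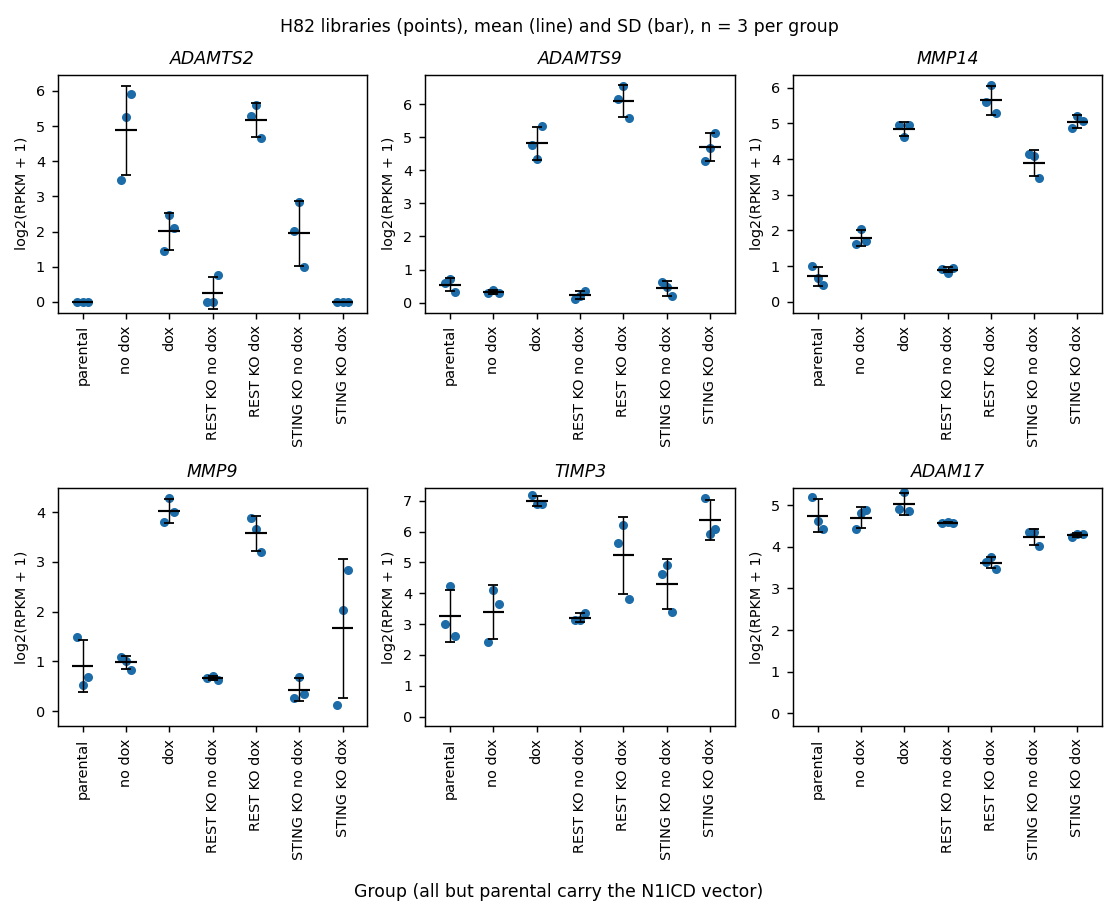
Level, log2(RPKM + 1) (vertical axes), of 6 members in the 7 H82 groups (horizontal axes), with a point per library, the mean as a line and the SD as a bar (n = 3). *ADAMTS2* is at 0 in parental cells and in STING KO dox cells and reaches 4.65 to 5.61 with *REST* knocked out and doxycycline, *MMP14* is already at 3.47 to 4.14 in STING KO cells without doxycycline, and *ADAM17* is lowest in REST KO dox cells.

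TAS1440 raised members of all 4 families in COR-L88 without any vector. Of 25 members 16 rose and 2 fell (15.3% and 7.46% of 13134 genes), with a median of 1.11 against 0.01 over all genes. *MMP14* went from 0.50, 0.58 and 0.40 to 3.41, 4.55 and 4.34 (difference 3.60 ± 0.22, adjusted *P* = 3.06e-08). Matrilysin, *MMP7*, a small epithelial protease without the hemopexin domain, went from 0.08, 0.00 and 0.00 to 3.91, 2.98 and 2.41 (3.07 ± 0.26, adjusted *P* = 4.87e-07). *MMP7* reached 1 in 3 of the 60 human libraries, those of intact COR-L88 cells with TAS1440. It thus passed the filter only through them, and its *P* values here and below support nothing by themselves. *ADAM9*, the leading member, rose by 1.97 ± 0.18 and *ADAM17* by 1.11 ± 0.13, and each of the 4 inhibitors rose: *TIMP2* by 2.64 ± 0.16, *TIMP1* by 2.44 ± 0.22, *TIMP3* by 2.11 ± 0.26 and *TIMP4* by 1.05 ± 0.29. The calls of *ADAM17* (0.97) and *TIMP4* (0.91) were lost with median centring and with quantile normalization, and that of *TIMP4* also without DMSO library 11 or 12 or TAS1440 library 14. *MMP11* fell by 2.43 ± 0.25, from 2.55 to 3.37 to 0.42 to 0.72, and *ADAMTS14* by 1.58 ± 0.15. *ADAM10* was at 3.74 to 3.93 and 3.92 to 4.23 and was not called, and *MMP2* did not pass the filter in this line.

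Adding the GSI to TAS1440 separated these members. Against TAS1440 plus GSI, 12 members were higher with TAS1440 alone and 1 lower (10.4% and 4.32% of all genes). *MMP7* was at 0.19, 0.06 and 0.13 with the GSI, a difference of 2.97 ± 0.26 (adjusted *P* = 3.18e-06), and *ADAM9* was at 4.92 to 5.02, within the DMSO range of 4.38 to 5.02. *ADAMTS15*, *ADAMTS12*, *TIMP1* and *ADAMTS1* were higher with TAS1440 alone by 1.87 ± 0.12, 1.78 ± 0.25, 1.74 ± 0.22 and 1.66 ± 0.12. *MMP14* was at 2.55 to 2.98 with the GSI, between DMSO and TAS1440 alone. Against DMSO, TAS1440 plus GSI was higher for 3 members, *MMP14* (2.27 ± 0.22), *ADAMTS7* (1.53 ± 0.36) and *TIMP2* (1.25 ± 0.16), and lower for 2, *ADAM28* (fell by 1.76 ± 0.21) and *MMP11* (fell by 1.72 ± 0.25), where 5.62% and 3.4% of all genes were called. *ADAM28* was thus lowest with both agents, at 0.77 to 1.37 beside 2.76 to 2.89 with DMSO and 2.14 to 2.90 with TAS1440 alone.

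In COR-L88 libraries labelled STING KO, TAS1440 raised 8 members and lowered 3 (10.2% and 5.79% of all genes), led by *ADAMTS7* (2.40 ± 0.36), *TIMP3* (2.17 ± 0.26), *MMP15* (2.08 ± 0.22), *ADAMTS1* (1.98 ± 0.12), *TIMP2* (1.86 ± 0.16) and *MMP14* (1.56 ± 0.22), while *MMP11*, *ADAMTS14* and *ADAM28* fell by 2.03 ± 0.25, 1.24 ± 0.15 and 1.16 ± 0.21. Under TAS1440, 0 members were higher and 7 lower than in intact cells (1.48% and 5.06% of all genes). *MMP7* was at 0.00, 0.35 and 0.00 against 3.91, 2.98 and 2.41 (lower by 2.98 ± 0.26, adjusted *P* = 1.05e-05), *MMP14* at 1.48 to 1.78 against 3.41 to 4.55 (lower by 2.46 ± 0.22) and *TIMP1* at 1.54 to 2.44 against 3.36 to 3.56 (lower by 1.54 ± 0.22). *ADAM9*, *ADAMTS12*, *ADAMTS15* and *ADAM28* made up the 7. Without STING KO TAS1440 library 44 the count was 11. With DMSO, 0 and 0 of 25 members differed by limma between STING KO and intact cells (0.457% and 1.01% of all genes), and 6 had an unadjusted *P* under 0.05. The response to TAS1440 differed for 6 members, each lower in the KO, and for 0 in the other direction (3.31% and 0.921% of all genes), led by *MMP7* (-2.96 ± 0.37) and *MMP14* (-2.05 ± 0.32). With a pseudocount of 0.1 the *MMP14* difference kept its sign and was not called. *INSM1* was 2.12 in intact and 4.65 in STING KO cells with TAS1440, beside 6.91 and 7.22 with DMSO (group means), and its part was not tested.

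In KP1 TAS1440 raised *Timp3*, *Mmp14*, *Timp2*, *Adamts1*, *Mmp11*, *Adam15* and *Adam9* and lowered *Mmp24* and *Mmp15*. Of the 58 mouse members 12 passed the filter, and *Mmp27* was listed at 0 in all 9 libraries. *Adam19*, *Adam33*, *Adamts9*, *Adamts15* and *Timp1*, whose human counterparts rose in all 3 N1ICD inductions, were not among the 12, and *Adamts10* differed by 0.41 ± 0.19 and was not called. TAS1440 raised 7 and lowered 2 against DMSO (9.09% and 9.7% of 8260 genes). *Timp3* was at 0.01 to 0.03 with DMSO, 4.62, 5.25 and 4.34 with TAS1440 and 0.02 to 0.10 with the GSI added (difference from DMSO 4.71 ± 0.20, adjusted *P* = 8.13e-07). *Mmp14* was at 0.03 to 0.30, at 5.10, 3.27 and 4.56 and at 0.26 to 0.43 (4.13 ± 0.38, adjusted *P* = 3.63e-05). *Timp3*, *Mmp14* and *Adamts1* reached 1 only in the 3 libraries with TAS1440 alone. They passed the filter through that group alone, so their *P* values support nothing by themselves. *Timp2* rose by 3.41 ± 0.34, *Adamts1* by 2.89 ± 0.26, *Mmp11* by 2.34 ± 0.33, *Adam15* by 1.54 ± 0.30 and *Adam9* by 1.02 ± 0.13, while *Mmp24* fell by 1.88 ± 0.21 and the membrane-type *Mmp15* by 1.36 ± 0.12. Against TAS1440 plus GSI the counts were again 7 and 2 (8.5% and 8% of all genes), with *Timp3* at 4.67 ± 0.20 and *Mmp14* at 3.94 ± 0.38. TAS1440 plus GSI against DMSO gave 0 and 0 (0.46% and 0.751% of all genes) by limma, with 1 member at an unadjusted *P* under 0.05. *Adam10* and *Adam17* did not reach a difference of 1.

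Single KP1 libraries decided several low members. *Timp1* was at 2.56, 0.08 and 0.06 and *Mmp2* at 3.78, 0.40 and 2.99 in TAS1440 libraries 4, 5 and 6, beside at most 0.16 and 0.52 elsewhere, and *Mmp23* was at 2.88 in library 6 alone. None of these passed the filter, since fewer than 3 libraries reached 1. Without TAS1440 library 5, 5 members were called against DMSO and 5 against TAS1440 plus GSI, because fewer genes then pass the filter. With the same genes kept the counts were 8 to 9 over the libraries left out. Leaving out DMSO library 1, 2 or 3 left 9 members called against DMSO. The sense of *MMP11* and *MMP15* under TAS1440 can be set beside the human line without a test: *Mmp11* rose and *Mmp15* fell in KP1, and *MMP11* fell and *MMP15* rose (1.08 ± 0.22) in COR-L88.

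**Figure D4:**
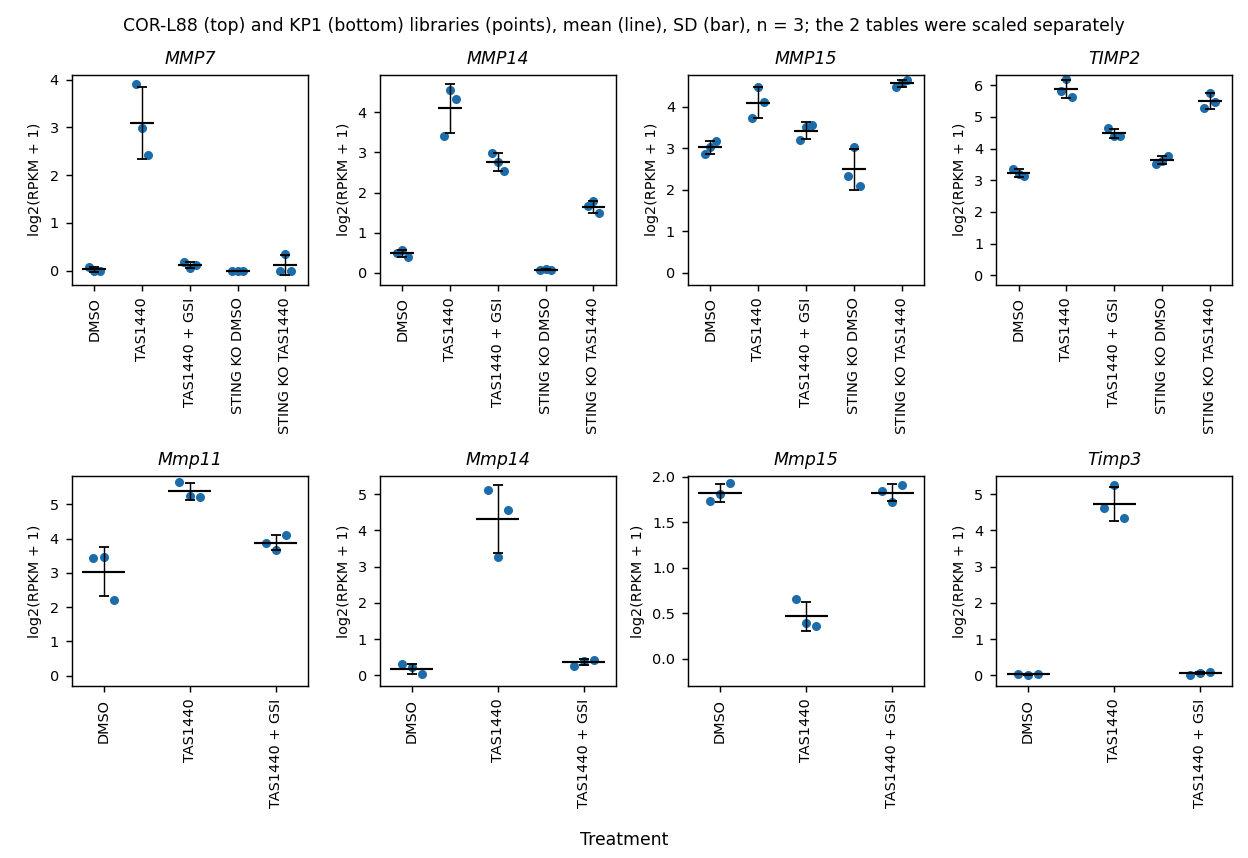
Level, log2(RPKM + 1) (vertical axes), of 4 members in the 5 COR-L88 groups (top) and 4 in the 3 KP1 groups (bottom), with a point per library, the mean as a line and the SD as a bar (n = 3). *MMP7* is above 1 only with TAS1440 alone in intact COR-L88 cells among these groups, *MMP14* and *Mmp14* are highest there as well, and *Mmp15* is lowest with TAS1440 alone.

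The balance of inhibitors to proteases was described by the share of the 4 TIMP genes in the summed RPKM of all members of a library. It was 18.4% without and 36.2% with doxycycline in H82, 16.0% and 19.2% with *REST* knocked out, 29.2% and 47.2% in cells labelled STING KO and 9.72% and 18.6% in H524. With the H524 *REST* vector, where no member was called, it was 5.29% without and 10.5% with doxycycline (6.25% to 14.8%). In H69 it was 12.7% and 10.9%, and these groups overlapped. In COR-L88 it was 8.05% with DMSO, 21.6% with TAS1440 and 15.5% with the GSI added, and 10.3% and 24.6% with DMSO and TAS1440 in STING KO cells, and in KP1 2.21%, 29.1% and 3.7% on that table's own scale. Groups did not overlap in the other comparisons just given, except TAS1440 plus GSI against DMSO in KP1, but with 3 libraries against 3 an exact two-sided permutation test cannot give less than *P* = 0.1, and none of the 24 tests made did. *TIMP1*, *TIMP3* and *TIMP4* lie on the opposite strand inside the synapsin genes *SYN1*, *SYN3* and *SYN2* (hg19), and because the strand setting of the counting was not given in the sources used here, reads of the 2 genes of such a pair cannot be told apart with certainty.

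**Figure D5:**
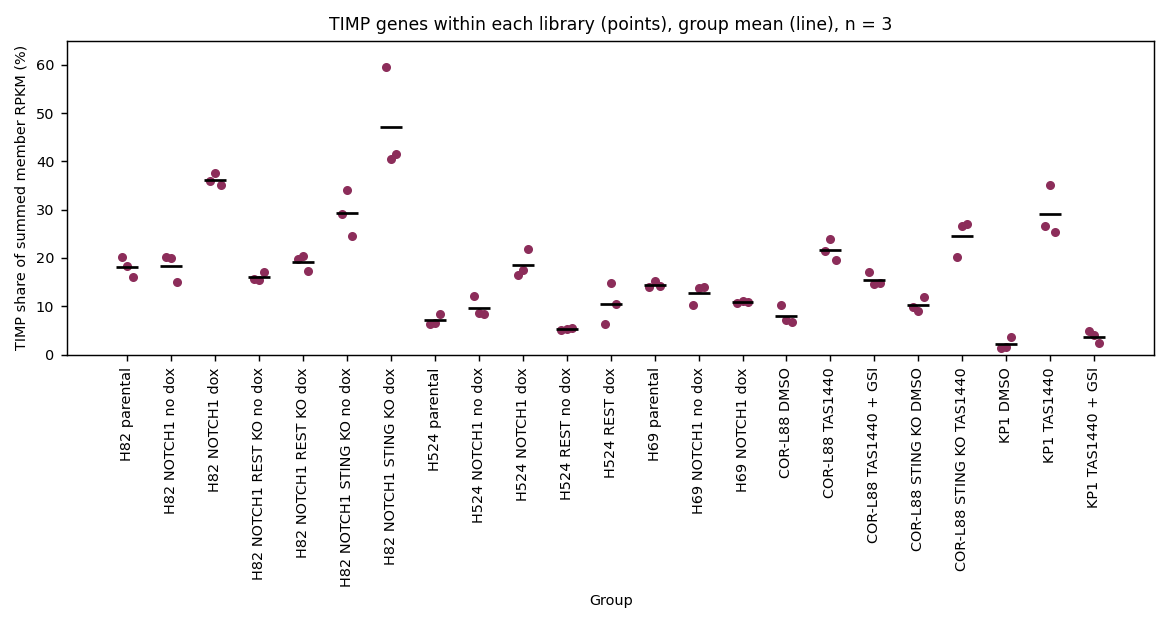
Share of *TIMP1* to *TIMP4* in the summed RPKM of all members in percent (vertical axis) in each of the 23 groups (horizontal axis), with a point per library and the mean as a line (n = 3). The share is higher with doxycycline in H82 and H524 and with TAS1440 in COR-L88 and KP1, but not in H69.

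Other genes of the pathway were taken from fixed lists, whose counts stand beside the shares of all tested genes that rose and fell: 14.7% and 12.4% in H82, 11.4% and 7.19% in H524 with N1ICD, 21.4% and 20.4% in H69, 15.3% and 7.46% in COR-L88 and 9.09% and 9.7% in KP1. Of 16 genes of other matrix proteases, inhibitors and ADAMTS-like proteins, 12 were tested in H82, of which 9 rose and 0 fell with doxycycline (median 1.79). In H69 8 rose and 1 fell of 12 (1.51), in H524 3 rose and 2 fell of 9 (0.77), in COR-L88 with TAS1440 7 rose and 2 fell of 11 (1.28), and in KP1 7 rose and 0 fell of 8 (2.57). Of 10 matrix substrates such as versican, fibronectin and tenascin C, 5 rose and 1 fell of 9 tested in H82, 6 rose and 0 fell of 9 in H524, 8 rose and 1 fell of 9 in H69, 3 rose and 1 fell of 5 in COR-L88 and 4 rose and 2 fell of 7 in KP1. Of 12 activators and regulators (RECK, furin-type convertases, iRhoms and the TspanC8 tetraspanins that carry ADAM10), 2 rose and 2 fell of 10 in H82, 2 rose and 1 fell of 10 in H524, 4 rose and 1 fell of 10 in H69, 6 rose and 0 fell of 9 in COR-L88 and 2 rose and 0 fell of 3 in KP1. With *REST* induction in H524 0 genes of these 3 lists were called.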

How the data were processed

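RNA-Seq was measured in 69 libraries, 3 for each of 23 groups taken from the labels. Per the study's methods, polyadenylated RNA was prepared with a stranded kit, Cutadapt removed adapters, STAR mapped the reads (builds hg19 and mm10 are named), RSEM quantified genes and edgeR gave TMM scaling, with versions not given in the sources used here. The authors deposited log2 values, log2(RPKM + 1), in 1 human and 1 KP1 table, so read totals are unknown and only relative library size could be estimated.

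Each line was fitted with limma 3.58.1 in R 4.3.3 (eBayes with a mean-variance trend, all groups of the line in 1 model) over the genes that reached 1 in 3 or more libraries of that line, with Benjamini-Hochberg adjustment over all of them. A call needed an adjusted *P* under 0.05 and a log2 difference of at least 1. Differences between the human lines came from 1 model over 60 libraries. TIMP shares were tested with exact two-sided permutation tests (SciPy 1.17.1), figures drawn with matplotlib 3.10.9, and tables handled with pandas 2.3.3 in Python 3.11.15. The fit was tested on simulated data.

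The members and gene lists were chosen with earlier results of these data known. Named in the text were the TIMP genes, *MMP2*, *MMP14*, *ADAM10* and *ADAM17*, up to 6 called members per direction in treatment comparisons, up to 3 in others, up to 5 per difference of responses and those shared by all 3 inductions. Where a count of calls was 5 or fewer, or a feature such as the chromosome 11 cluster or a low KP1 gene was singled out, the names were chosen after the values were seen. Alternatives were another pseudocount (0.1), no filter, no trend, quantile normalization, median centring, a model with the compared groups alone, no fold limit and each library left out. A planned scan of protein sequences was not run, since no protein table was used here.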

Additional observations from a re-analysis of the deposited data

Results flagged for a closer look

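The responses of several members differed between backgrounds of 1 line or between lines, each by a limma contrast of the difference itself with an adjusted *P* under 0.05 (differences on the log2 scale, first minus second). In H82 the dox response of REST KO minus intact cells was 7.79 for *ADAMTS2*, 3.94 for *ADAMTS15*, 3.39 for *MMP17*, 2.41 for *ADAMTS10* and -2.23 for *ADAMTS19*; that of *ADAMTS10* lost its call with the compared groups alone and without any of 8 single libraries. The same difference for cells labelled STING KO was 2.45 for *MMP15*, 2.16 for *MMP24*, -1.89 for *MMP14* and 1.59 for *MMP2*. In H524 the N1ICD response minus the *REST* response was 8.82 for *ADAMTS10*, 6.76 for *ADAMTS9*, 4.84 for *TIMP3*, 4.67 for *MMP17* and 4.3 for *MMP11*. In COR-L88 the TAS1440 response of STING KO minus intact cells was -2.96 for *MMP7*, -2.05 for *MMP14*, -1.68 for *ADAMTS12*, -1.13 for *TIMP1* and -1.1 for *ADAM15*. The *TIMP1* difference lost its call with no filter, a pseudocount of 0.1, median centring, the compared groups alone or any of 10 single libraries left out, that of *MMP14* with the pseudocount of 0.1, and that of *ADAM15* without TAS1440 library 14.

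Between lines, the N1ICD response of H69 minus H82 was 4.95 for *ADAMTS4*, 4.15 for *ADAMTS10*, 3.67 for *ADAMTS8* and 3.39 for both *ADAMTS2* and *ADAMTS15*. That of H69 minus H524 was 5.93 for *MMP14*, -4.44 for *ADAMTS9*, 4.32 for *ADAM19*, 3.53 for *ADAMTS15* and -3.5 for *MMP17*. That of H82 minus H524 was -6.61 for *ADAMTS10*, -4.99 for *MMP17*, 3.13 for *MMP14*, -2.75 for *ADAMTS9* and 2.75 for *MMP9*. Groups of 3 libraries were too small for a test of single outlying libraries.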

How the results depend on the processing

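Counts of called members stayed within 1.5 times in all 31 comparisons with quantile normalization, median centring, no filter and no trend. Where a count moved further, the cause was not tested unless given. With the adjusted *P* alone and no fold limit it was 12 rather than 6 for H82 dox STING KO against intact, 14 rather than 8 for the same without doxycycline, 10 rather than 6 for H82 uninduced against parental, 1 rather than 0 for H524 *REST* dox, 14 rather than 7 for H69 uninduced against parental, 20 rather than 13 for COR-L88 TAS1440 against TAS1440 plus GSI, 10 rather than 5 for TAS1440 plus GSI against DMSO, 17 rather than 11 for TAS1440 against DMSO in STING KO and 13 rather than 7 for TAS1440 STING KO against intact. With a pseudocount of 0.1 it was 8 rather than 5 for H82 no dox REST KO against intact, 11 for H82 uninduced against parental, 1 for H524 *REST* dox, 11 for H69 uninduced against parental, 9 for COR-L88 TAS1440 plus GSI against DMSO, 11 for TAS1440 STING KO against intact, 2 rather than 0 for DMSO STING KO against intact and 3 rather than 6 for the difference of COR-L88 responses. With the compared groups alone it was 3 for H82 uninduced against parental, 1 for H524 *REST* dox and 0 rather than 5 for H524 uninduced against parental.

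Leaving out single libraries gave 2 to 9 for H82 uninduced against parental, 10 to 19 for H524 N1ICD dox, 0 to 1 for H524 *REST* dox, 2 to 8 for H524 uninduced against parental, 16 to 30 for H69 dox, 6 to 11 for COR-L88 TAS1440 STING KO against intact, 5 to 9 for KP1 TAS1440 against DMSO and 5 to 9 against TAS1440 plus GSI, and 8 to 16 for the difference of H524 responses. With the genes that pass over all libraries, an alternative chosen after seeing the data, the ranges were 2 to 9 for H82 uninduced against parental, 0 to 1 for H524 *REST* dox, 2 to 8 for H524 uninduced against parental and 7 to 11 for COR-L88 TAS1440 STING KO against intact.

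Among named members, none of which was called there, the sign turned for *ADAM17* in H82 STING KO dox (-0.031 median-centred, and -0.063 without no-dox library 57 in a range up to 0.11 over the libraries left out), for *MMP2* in the same comparison (-0.29 to 0.22, with 0.00 without no-dox library 57 and 0.22 without dox library 58), for *MMP14* in H524 N1ICD dox (-0.35 to 0.33, the latter without no-dox library 23), for *TIMP4* in H524 *REST* dox (-0.014 with quantile normalization, -0.030 median-centred) and for *Adam17* in KP1 TAS1440 plus GSI against DMSO (-0.055 to 0.055, the former without TAS1440 plus GSI library 7, and below 0 also without DMSO library 3). Counted as pairs of a named member and a left-out library, the call was lost in 61, and 1560 kept direction and call. Pairs in which the member no longer passed the filter were not counted, so lost calls of that kind are not among the 61.

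No paired analysis was possible because each library number occurs once in a table and pairs no libraries across groups. Nothing says that the libraries of a group were separate cultures, so the *P* values measure the spread between these libraries. Read depth is unknown, so no counting error can be given for members near 0.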
